A study of Mus musculus with 13 samples.

Results

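Transcripts of 10 genes of leukocyte adhesion were followed in mouse liver during cholangitis induced by 3,5-diethoxycarbonyl-1,4-dihydrocollidine (DDC), 5 of them adhesion molecules of the vessel wall (Vcam1, Icam1, Icam2, Sele and Selp) and 5 of them integrin subunits of leukocytes (Itga4, Itgb1, Itgb7, Itgal and Itgam). They were chosen by name, out of 55353 gene symbols, and read as raw unique molecular identifier (UMI) counts in barcodes with at least 1500 UMIs of 13 droplet-based 3' single-cell libraries. All mice were male C57BL/6J animals with no engineered allele, 6 to 12 weeks old, and the groups differ in feeding and, within a day, in isolation protocol. The D0 libraries are steady state without DDC. The other atlas libraries come from mice given chow with 0.1% DDC for 3, 5, 9, 19 or 25 days (D3, D5, D9, D19, D25), and the STOP library from mice on DDC until day 18 that then recovered for 7 days. Each atlas day has 1 library of isolation protocol A and 1 of protocol B, named here as D0 A or D0 B, and STOP used protocol B. Protocol A pooled alive singlets with fractions sorted for Cd45 (leukocytes), Epcam (bile ducts), Pdpn, Lyve-1, Cd31 without Lyve-1, and retinoid autofluorescence. Protocol B pooled alive cells of a stellate cell preparation with fractions sorted for Epcam, for Cd3e without Lyve-1, and for Cd45 and Itgax without Cd64. The numbers of cells of a type are therefore set by the sorts. Library D19 B is given day 19 by its title and day 18 by another label. No label ties a mouse to a library, so SDs and tests are over libraries, and some may share an animal. DDC chow injures bile ducts chemically and is a model of cholangitis in this one strain and sex.

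Leukocytes leave the blood in steps. The selectins Sele (E-selectin) and Selp (P-selectin) on activated endothelium catch passing cells by their sugar ligands, and firm arrest follows when leukocyte integrins bind members of the immunoglobulin family on the vessel wall. Vcam1 is bound by the integrin of Itga4 (the alpha 4 chain) with Itgb1, called VLA-4, Itga4 with Itgb7 binds the gut addressin and Vcam1, and Icam1 and Icam2 are bound by LFA-1, which is Itgal with Itgb2. Itgam with Itgb2 forms Mac-1, which binds Icam1 and complement fragments. In the liver sinusoid, where flow is slow, much of the adhesion is known to run with little help from selectins. Icam1, Vcam1 and Sele are textbook targets of NF-kB after Tnf or Il1.

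The promoters of Icam1, Sele and Selp are shown because these genes are known to respond to inflammation and because the selectins carry the change over diet days described below. Each is the 250 bases before the start site of its RefSeq promoter entry in GRCm38.p6, on the plus strand, which is the strand of these genes. Capitals mark a match to GGANNTTCC, a form of the NF-kB motif, searched on both strands. Icam1 is at chr9:21015690-21015939, Sele at chr1:164047984-164048233 and Selp at chr1:164115014-164115263.
Icam1: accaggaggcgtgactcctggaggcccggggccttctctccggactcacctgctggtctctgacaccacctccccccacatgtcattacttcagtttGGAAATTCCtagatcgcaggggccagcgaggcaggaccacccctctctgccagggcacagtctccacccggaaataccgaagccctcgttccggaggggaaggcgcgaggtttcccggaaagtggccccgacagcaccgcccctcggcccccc
Sele: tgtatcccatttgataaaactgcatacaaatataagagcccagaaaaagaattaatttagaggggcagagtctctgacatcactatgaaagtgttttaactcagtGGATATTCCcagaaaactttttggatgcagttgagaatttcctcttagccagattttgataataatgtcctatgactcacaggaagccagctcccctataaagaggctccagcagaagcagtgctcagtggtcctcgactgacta
Selp: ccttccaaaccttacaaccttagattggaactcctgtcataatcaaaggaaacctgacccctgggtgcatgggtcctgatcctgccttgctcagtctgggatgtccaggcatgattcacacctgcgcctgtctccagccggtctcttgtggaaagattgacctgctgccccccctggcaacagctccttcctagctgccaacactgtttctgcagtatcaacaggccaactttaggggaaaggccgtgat
The match in Icam1 starts 153 bases before the start site and that in Sele 145 bases before it. The Selp window holds no such match, nor do those of Itga4, Itgb1, Itgb7 and Itgam, the other members with an entry. Of the 10 members, 7 have a promoter entry. Of all 32851 windows of this length, 1178 (3.59%) hold the motif. Sele and Selp are neighbours on chromosome 1, from 164039614 to 164058487 and from 164115264 to 164150026, and Itgal and Itgam both lie on chromosome 7. The start site used for Sele lies 8620 bases inside the span of its RefSeq gene and is the start of its 1 GENCODE transcript. For Icam1, 0 of its 2 GENCODE transcripts start at the site used.

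The libraries hold 95563 cells, 1541 to 14764 each, at 29307190 to 108602421 UMIs in total and a median of 3350 to 12013 UMIs per cell. Cells were clustered without the members and named from markers, as "X-like". Each name was checked against its markers, which were Dnase1l3, Stab2 and Oit3 for the 23029 liver sinusoidal endothelial cell (LSEC)-like atlas cells, Epcam and Krt19 for the 5215 biliary epithelial cell (BEC)-like cells and Clec4f, Vsig4 and Timd4 for the 2724 Kupffer-like cells. Another 4642 cells carried endothelial markers of other vessels. Counted with STOP, they made up cluster 7 (3665 cells, led by Rspo3 and Cyp1b1) and cluster 26 (1094 cells, led by Cyp1a1 and Sema3g). Leukocytes fell into monocyte-like, macrophage-like and neutrophil-like cells, conventional dendritic cells of types 1 and 2 (cDC1-like, cDC2-like), mature dendritic cells (mature DC-like), plasmacytoid dendritic cells (pDC-like) and T-like, B-like and NK/ILC1-like cells. In all, 19066 cells (4.69% of D0 A to 35.7% of D19 A) stayed unnamed. Any 2 libraries shared at most 49 barcodes. Levels are given as CPM, the UMIs of the gene per 1000000 UMIs of all cells of the type in the library, for types with at least 20 cells. Steady state has 1 library for BEC-like cells (D0 A) and 20 and 25 cells in D0 B for the other endothelial-like and Kupffer-like cells. Barcodes with 10 to 100 UMIs served as a measure of free RNA. Its Vcam1 level was 22.3 to 611 CPM and its Sele level 0 to 34.1 CPM. Its Icam1 level was 10.03 to 106 CPM outside D25 A, where it was 331. Its Selp level was 0 to 25.6 CPM outside D25 A, where it was 102. The free RNA of D25 A held 39263 UMIs in all, the fewest of the libraries, so its levels rest on few UMIs of a gene. Of the named cells, 39.4% held at least 3 UMIs of markers of another lineage, with 69.9% of Kupffer-like, 64.9% of BEC-like, 45.3% of LSEC-like, 42.2% of the other endothelial-like, 33.1% of neutrophil-like and 11.04% of T-like cells, and results were recomputed without them.

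Vcam1 was highest in Kupffer-like cells at a median of 810.3 CPM over 11 atlas libraries, followed by BEC-like cells at 594, the other endothelial-like cells at 439 and LSEC-like cells at 350.3 CPM. No pair of neighbours in this order passed the test after correction. Kupffer-like cells exceeded BEC-like cells by 0.99 on the log2 scale (SD 0.75, n = 8 libraries, higher in 8; exact sign-flip p = 0.00781, Benjamini-Hochberg adjusted 0.0777), and this p is the smallest that 8 libraries allow. The next neighbours, down to LSEC-like cells, had unadjusted exact sign-flip p = 0.891 and 0.111. Such tests were 2-sided, and the 179 of them with at least 3 libraries in common (of 187 pairs of neighbours, over all types, the members and Itgb2) were adjusted together. Icam1 was highest in neutrophil-like cells at 226 CPM, in a range of 21.1 to 609.9, and the other endothelial-like cells came next at 155. These 2 types could not be told apart in level (adjusted exact sign-flip p = 0.835, n = 11). Icam2, the constitutive ligand of LFA-1, was led by the other endothelial-like cells at 165 CPM and LSEC-like cells at 141 CPM. The former exceeded the latter by 0.42 on the log2 scale (SD 0.27, n = 11 libraries, higher in 11; exact sign-flip p = 0.000977, Benjamini-Hochberg adjusted 0.0291), which is the smallest p this number of libraries allows. The selectins were highest in endothelium. Sele stood at 290.0 CPM in the other endothelial-like and 95.1 CPM in LSEC-like cells, and Selp at 360.0 and 63.0 CPM. Selp in the other endothelial-like cells exceeded LSEC-like cells by 1.86 on the log2 scale (SD 1.33, n = 11 libraries, higher in 10; exact sign-flip p = 0.00195, Benjamini-Hochberg adjusted 0.0388). For Sele the same difference was 1.40 on the log2 scale (SD 1.003, n = 11 libraries, higher in 9; exact sign-flip p = 0.00391, Benjamini-Hochberg adjusted 0.0583), which did not pass. A Selp UMI was found in a median of 11.6% of LSEC-like cells, or 5.71% after thinning each cell to 1500 UMIs, against 0.212% of T-like cells (0.0905% thinned), which should lack it. Other types outside endothelium held more in some libraries. B-like cells held 3.48 to 4.67 CPM of Selp at D0 and 0 to 52.3 at onset, where LSEC-like cells held 19.8 to 63.3 CPM. Stellate/fibroblast-like cells held 4.40 to 93.1 CPM in progression. The part of carried-over RNA in the LSEC-like levels was not tested. The median depth of a library was 2156 to 8502 UMIs per LSEC-like cell and 2121 to 6744 per T-like cell.

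**Figure D1:**
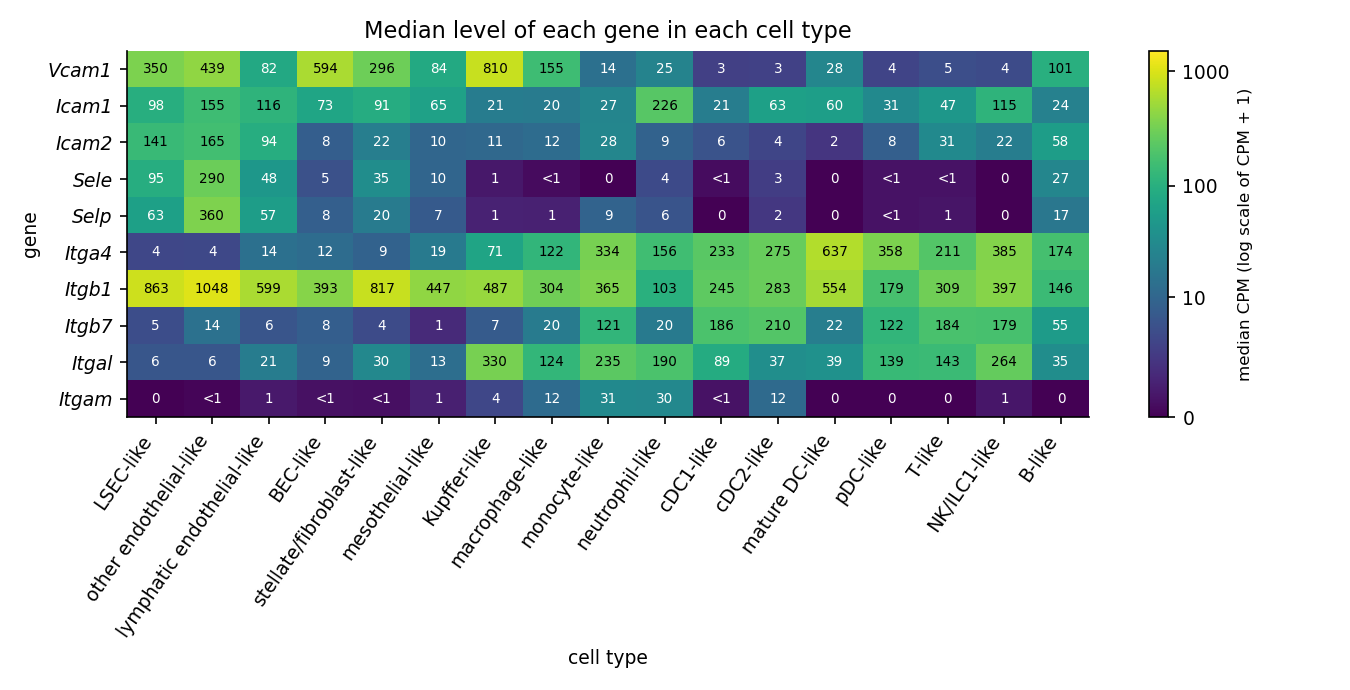
Median level over atlas libraries (CPM, colour on a log scale) of the 10 genes (rows) in each cell type (columns) with at least 20 cells per library. Vcam1 was highest in Kupffer-like cells (810.3 CPM), Icam1 in neutrophil-like cells (226 CPM), and Sele and Selp in the other endothelial-like cells (290.0 and 360.0 CPM).

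The first comparison asked which members changed under DDC against steady state within a type. edgeR's quasi-likelihood test was fitted to all genes of each of 14 types with isolation protocol as a term, and the contrast was the mean of onset (D3, D5) and progression (D9, D19, D25) minus D0. Of 140 member-by-type pairs, 112 passed the filter on low counts and 2 were called at a Benjamini-Hochberg adjusted p of 0.05, beside 3.25% of all gene-by-type pairs. The calls were Icam1 in neutrophil-like cells, higher under DDC, and Itgb7 in pDC-like cells, lower than in a single D0 library. In LSEC-like, other endothelial-like, BEC-like and Kupffer-like cells edgeR called 0 of 35 pairs, 8 passed 0.05 before adjustment, and 3 were called by DESeq2. This contrast called there 0.387%, 0.143%, 0.355% and 2.43% of genes, in the order of these types. Steady state had 2 libraries, or 1 in BEC-like, cDC2-like, mature DC-like and pDC-like cells, where the tests assume that the lone library varies like the other groups. Over all types, an unadjusted p under 0.05 was reached by 23 pairs, and DESeq2 called 7. The second comparison, progression against onset, called 0 of 104 pairs tested with edgeR, beside 0.041% of all pairs. The shares of genes called in the same 4 types were 0.0421%, 0.0669%, 0% and 0.138%. An unadjusted p under 0.05 was reached by 18 pairs, and DESeq2 called 3, Selp in LSEC-like cells and Icam1 in neutrophil-like and cDC2-like cells. A further fit, chosen after these data had been seen, took the diet day as a number. It called 3 of 112 pairs, beside 0.638% of all pairs: Selp and Sele rose with diet day in LSEC-like cells and Itgal fell in neutrophil-like cells. The libraries of the 3 fits are the same, so they are not separate evidence.

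Selp, the selectin stored in endothelial granules, rose over the diet in LSEC-like cells. In protocol A libraries it stood at 24.2 at D0, 19.8 at D3, 63.3 at D5, 62.7 at D9, 134 at D19 and 268 at D25. In protocol B libraries it stood at 14.9 at D0, 21.3 at D3, 34.5 at D5, 103 at D9, 254 at D19 and 409 at D25 CPM. The values at D0 and D3 lay between 14.9 and 24.2 CPM, and all 6 libraries from D9 on were above every library of D0 and D3 in both protocols. Per 10 diet days, the log2 level changed by 1.64 (SE 0.13), adjusted p = 9.53e-06 (edgeR, Benjamini-Hochberg), with 0.883% of genes called in this fit. The slope was 1.46 in protocol A alone (adjusted p = 0.00579, edgeR) and 1.86 in protocol B alone (adjusted p = 0.00519, edgeR). It was called in all 12 fits that left out 1 library, and it was 1.64 with mixed cells left out. As stages, Selp averaged 137 ± 131 CPM (SD, n = 10) under DDC and 19.6 ± 6.58 CPM (SD, n = 2) at D0, a log2 change of 2.15 (SE 0.67), adjusted p = 0.212 (edgeR), and 205 ± 129 CPM (SD, n = 6) in progression against 34.7 ± 20.2 CPM (SD, n = 4) at onset, a log2 change of 2.56 (SE 0.50), adjusted p = 0.123 (edgeR). The rise was seen inside LSEC-like clusters, which had been drawn without the members. In cluster 1, led by Adamts4 and Cxcl10, Selp went from 43.6 and 19.8 CPM at D0 to 519 and 465.8 CPM at D25. In cluster 0, led by Mir6236 and Cplx2, it went from 0 and 15.1 to 207 and 132 CPM, and in cluster 3, led by Cyp4b1 and Oit3, from 1.05 at D0 A to 90.6 at D25 A. Most LSEC-like cells of D0 A (2492) sat in cluster 12, which is nearly all from that library and is led by hepatocyte genes such as Mup11, and leaving it out changed no call of a member. The summed level of markers of the other endothelium in LSEC-like cells was 762 and 698 CPM at D0 and 403 (D19 B) to 630.0 CPM (D3 B) in the 10 DDC libraries, among them 543 and 618 CPM at D25. Macrophage markers in LSEC-like cells summed to 238 and 103 CPM at D0, 728 and 445 at D19 and 544 and 596 CPM at D25, and LSEC markers to 14863 and 24619.8 CPM at D0 and 8156 and 13471 CPM at D25. The part of these sums in the result was not tested. In D25 A the free RNA held 102 CPM of Selp beside 268 in the cells, and in D25 B 5.38 beside 409. The D25 A value rests on few UMIs, as its free RNA held 39263 UMIs of all genes.

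In the other endothelial-like cells, Selp was high at the start. It stood at 360.0 at D0, 157 at D3, 385 at D5, 253 at D9, 367 at D19 and 419 at D25 CPM in protocol A libraries, and at 158 at D0, 246 at D5, 135 at D9, 395 at D19 and 391 at D25 CPM in protocol B libraries, where D3 had too few cells. The D0 values lay within the range of the DDC values, D0 B from 20 cells. Selp differed within this type, at a median of 388 CPM in cluster 7 and 179 CPM in cluster 26. The slope was 0.39 (SE 0.13), adjusted p = 0.282 (edgeR), and the log2 changes were 0.33 (SE 0.39), adjusted p = 0.848 for DDC against D0 and 0.35 (SE 0.33), adjusted p = 1 for progression against onset (edgeR). The slope of Selp in LSEC-like cells exceeded that in the other endothelial-like cells of the same libraries by 1.24 (SE 0.14), adjusted p = 7.44e-05 (edgeR with library block), where 0.47% of genes were called. This difference was called in all 11 fits that left out 1 library. By D25, Selp in LSEC-like cells was at 268 and 409 CPM, beside 419 and 391 CPM in the other endothelial-like cells, having been 24.2 and 14.9 beside 360.0 and 158 CPM at D0.

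Sele, which is made anew in activated endothelium, moved the same way in LSEC-like cells but less far. Protocol A libraries held 60.4 at D0, 53.5 at D3, 90.8 at D5, 75.8 at D9, 102 at D19 and 185 at D25 CPM, and protocol B libraries 51.3 at D0, 99.3 at D3, 60.7 at D5, 110.1 at D9, 138 at D19 and 264 at D25 CPM. Both D25 libraries were above all libraries of the other days. The slope was 0.74 (SE 0.09), adjusted p = 0.00062 (edgeR), with 0.70 in protocol A (adjusted p = 0.0441, edgeR) and 0.77 in protocol B (adjusted p = 0.16, edgeR). Sele differed between LSEC-like clusters, at a median of 144 CPM in cluster 1, 42.7 in cluster 0 and 18.7 CPM in cluster 3. The clusters were not spread evenly over the libraries, and the part of this make-up in the slope was not tested. By stage, Sele averaged 118 ± 64.1 CPM (SD, n = 10) under DDC and 55.8 ± 6.45 CPM (SD, n = 2) at D0, a log2 change of 0.97 (SE 0.39), adjusted p = 0.346 (edgeR), and progression differed from onset by 1.01 (SE 0.31), adjusted p = 0.388 (edgeR). In the other endothelial-like cells Sele stood at 372 at D0, 204 at D3, 316 at D5, 189 at D9, 313 at D19 and 379 at D25 CPM in protocol A and 316 at D0, 272 at D5, 92.5 at D9, 290.0 at D19 and 202 at D25 CPM in protocol B. The D0 libraries were among the highest there. Its slope was 0.10 (SE 0.14), adjusted p = 0.872, and the stage contrasts gave -0.19 (SE 0.37), adjusted p = 0.933 for DDC against D0 and -0.11 (SE 0.31), adjusted p = 1 for progression against onset (all edgeR). The slope in LSEC-like cells was larger by 0.66 (SE 0.15), adjusted p = 0.0446 (edgeR), but 3 of the 11 fits without 1 library called this (D9 A, D9 B or D19 A left out), the others giving adjusted p from 0.0665 to 0.178 (edgeR), and with mixed cells left out it was 0.48 (adjusted p = 0.351, edgeR).

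Sele and Selp UMIs occurred together. For this count each cell was first thinned to 1500 UMIs. Among LSEC-like cells with a Sele UMI, a median of 16.7% also had a Selp UMI, against 5.24% of those without. The share was higher in 11 of 11 libraries. In the other endothelial-like cells these shares were 43.7% and 22.3% (8 of 8 libraries). The shares thus compare cells at equal depth. Before thinning, LSEC-like cells with a Sele UMI held more UMIs, such as a median of 3815.5 against 3185 in D25 A. LSEC-like clusters also differed in both genes, with median levels of 144 CPM of Sele and 102 of Selp in cluster 1 and 18.7 and 26.1 CPM in cluster 3. The parts of depth and of these clusters in the pairing were not tested.

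**Figure D2:**
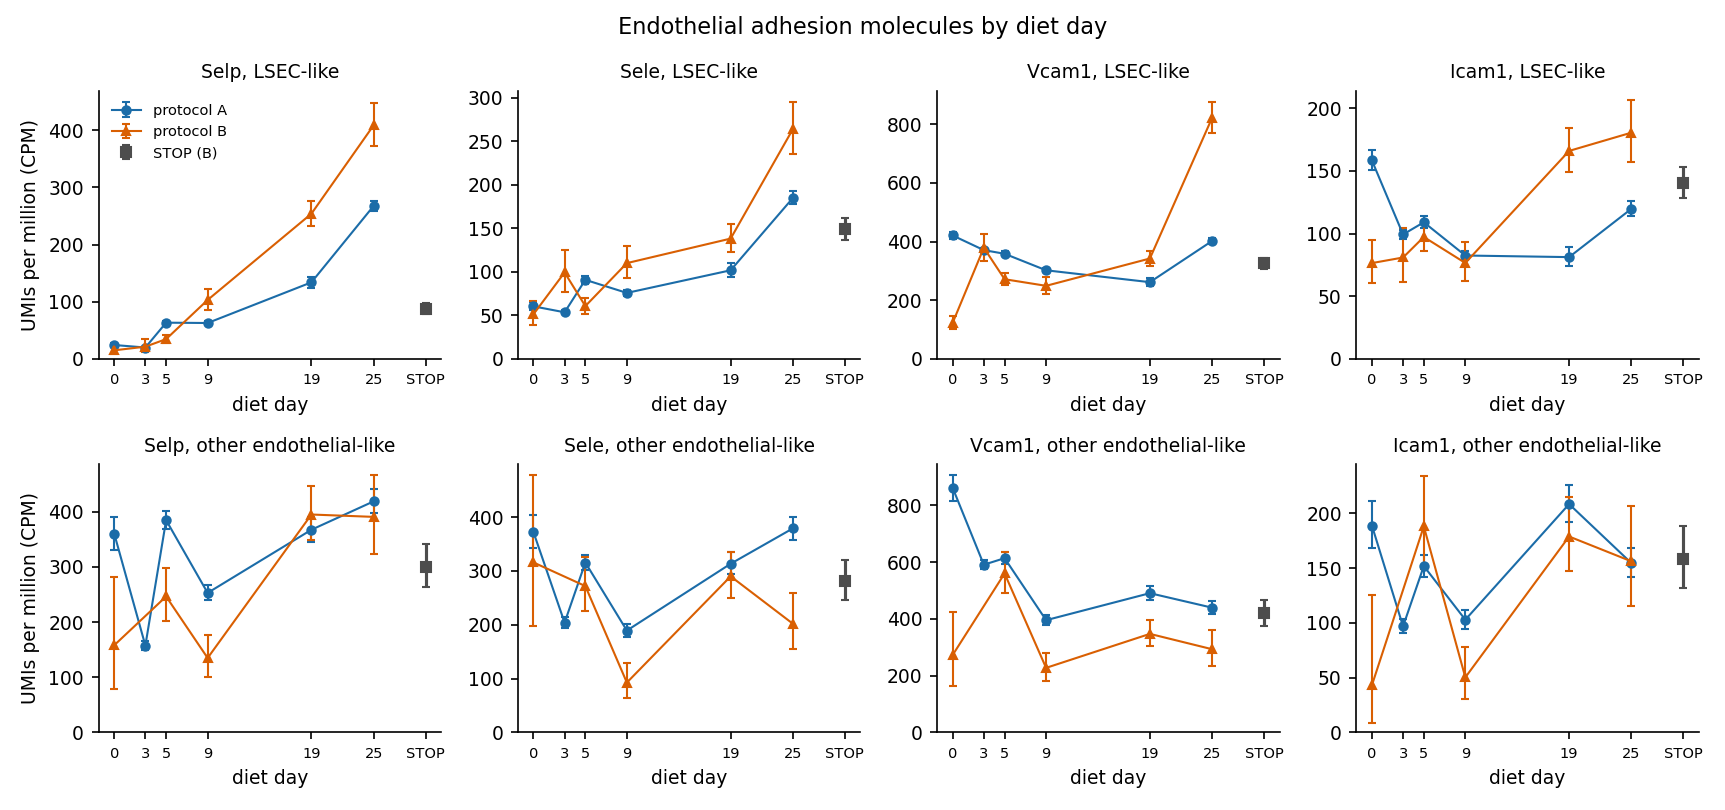
Level (CPM, vertical axes from 0) of Selp, Sele, Vcam1 and Icam1 against diet day in LSEC-like cells (top) and the other endothelial-like cells (bottom), with 1 point per library, lines joining protocol A and protocol B libraries, bars for exact 95% Poisson intervals and the STOP library marked apart. Selp in LSEC-like cells climbed to 268 and 409 CPM at D25 from 24.2 and 14.9 at D0, while the other endothelial-like cells began at 360.0 and 158 CPM.

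Vcam1, the ligand of the alpha 4 integrins, did not change by test in either endothelial type. In LSEC-like cells it stood at 421 at D0, 371 at D3, 358 at D5, 302 at D9, 261 at D19 and 402 at D25 CPM in protocol A and 123 at D0, 379 at D3, 272 at D5, 249 at D9, 342 at D19 and 822 at D25 CPM in protocol B. D25 B held the highest value and D0 B the lowest, and the D0 libraries lay inside the range of the DDC libraries or below it. The log2 changes were 0.59 (SE 0.45), adjusted p = 0.656 for DDC against D0, 0.25 (SE 0.35), adjusted p = 0.921 for progression against onset and 0.37 (SE 0.15), adjusted p = 0.264 per 10 days (edgeR). The level of Vcam1 in free RNA exceeded that of LSEC-like cells in D3 A, D9 A, D19 A and D25 A. Levels differed between LSEC-like clusters, with 879 and 966 CPM at D25 in cluster 1 and 278 and 110.1 CPM in cluster 0, and cluster 1 made up 119 cells of D25 B and 34 came from cluster 0. In the other endothelial-like cells Vcam1 stood at 861 at D0, 591 at D3, 614 at D5, 395 at D9, 490.4 at D19 and 439 at D25 CPM in protocol A and 273 at D0, 559.9 at D5, 227 at D9, 347 at D19 and 293 at D25 CPM in protocol B. Here all 6 progression libraries lay below all 3 onset libraries, at 365 ± 96.6 CPM (SD, n = 6) against 588 ± 27.0 CPM (SD, n = 3). The test did not call this difference, at a log2 change of -0.70 (SE 0.25), adjusted p = 0.777, and DDC against D0 gave -0.02 (SE 0.30), adjusted p = 1 (edgeR).

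Icam1, the inducible ligand of LFA-1 and Mac-1, showed no called change in endothelium. In LSEC-like cells it ranged from 76.4 to 181 CPM with a median of 98.3, and the D0 libraries lay at 158 and 76.4 CPM, D0 B being the lowest of 12. In the other endothelial-like cells it ranged from 43.1 to 209 CPM with a median of 155, D0 being 189 and 43.1 CPM. The log2 changes under DDC were -0.05 (SE 0.32), adjusted p = 0.979 in LSEC-like and 0.26 (SE 0.43), adjusted p = 0.909 in the other endothelial-like cells (edgeR), and those of progression against onset were 0.30 (SE 0.27), adjusted p = 0.857 and -0.03 (SE 0.35), adjusted p = 1 (edgeR). Icam2 differed between D0 A and D0 B, where protocol and library cannot be told apart. LSEC-like cells held 119 CPM in D0 A and 492.99 CPM in D0 B, and the DDC libraries 93.9 to 216 CPM. The other endothelial-like cells showed the same split, at 160.4 and 517 CPM, the latter from 20 cells.

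Vcam1 in BEC-like cells was lowest at steady state. D0 A, the single steady-state library with enough of these cells, held 80.3 CPM. The protocol A libraries of the diet held 327 at D9, 766 at D19 and 554 CPM at D25, and protocol B libraries 240.4 at D3, 671 at D5, 634 at D9, 649.8 at D19 and 594 at D25 CPM. All 8 DDC libraries were above D0 A, with 555 ± 179 CPM (SD, n = 8) against 80.3 CPM (n = 1). The log2 change of 2.78 (SE 0.68), adjusted p = 0.0963 in edgeR missed the threshold, while DESeq2 called it (adjusted p = 0.000104), as did edgeR without the protocol term (adjusted p = 0.04). All of these p-values rest on the 1 D0 library and on the spread among the DDC libraries. Progression differed from onset by 0.37 (SE 0.43), adjusted p = 0.97 (edgeR). Hepatocyte markers in BEC-like cells summed to 6322 CPM in D0 A and to 1329 to 3936 CPM in the 8 DDC libraries, and their part in the result was not tested. Which BEC-like cells were captured moved with this too. Of the 787 cells in D0 A, 694 belonged to cluster 22, led by Snorc and Lamc3. Cluster 17, led by Cxcl5 and Krt17, held 835 to 1072 CPM of Vcam1 in 7 DDC libraries and had no D0 library with 20 cells. Inside cluster 22, Vcam1 was 76.0 CPM in D0 A and 143 to 319.6 CPM in DDC libraries, and inside cluster 20 121 CPM against 96.1 to 243 CPM. Icam1 in BEC-like cells went the other way in value, with 156 CPM in D0 A and 72.7 ± 37.2 CPM (SD, n = 8) under DDC, a log2 change of -1.54 (SE 0.49), adjusted p = 0.153 (edgeR). D19 B, at 156 CPM, was as high as D0 A. The change from onset to progression was 0.99 (SE 0.40), adjusted p = 0.901 (edgeR).

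Kupffer-like cells had the highest median level of Vcam1 of all types. Protocol A libraries held 403 at D0, 529 at D3, 783 at D5, 1287 at D9, 1229.6 at D19 and 1039 at D25 CPM and protocol B libraries 637 at D0, 738 at D5, 1079 at D9, 1033 at D19 and 810.3 at D25 CPM, with D3 B left out for too few cells. All 6 progression libraries were above all 3 onset libraries and both D0 libraries. Under DDC the mean was 948 ± 248 CPM (SD, n = 9) against 520.1 ± 166 CPM (SD, n = 2) at D0, a log2 change of 1.02 (SE 0.27), adjusted p = 0.0566 in edgeR, which just missed the threshold, while DESeq2 called it (adjusted p = 0.00455). Progression against onset gave 1079.8 ± 168 CPM (SD, n = 6) and 683 ± 135 CPM (SD, n = 3), a log2 change of 0.58 (SE 0.22), adjusted p = 0.489 (edgeR). Free RNA of Vcam1 was 611 CPM at its highest, in D25 A, beside 1039 CPM in these cells, and at most 123 CPM in protocol B libraries. Kupffer-like cells of D0 B numbered 25. Icam1 was low, at 8.98 to 85.0 CPM, and the 2 contrasts gave -0.25 (SE 0.47), adjusted p = 0.831 and 1.03 (SE 0.40), adjusted p = 0.51 (edgeR). Within libraries, Vcam1 in Kupffer-like cells exceeded the macrophage-like cells by a log2 difference of 2.47 (SE 0.16), adjusted p = 4.14e-10 (edgeR with library block, n = 11), at mean levels of 870.0 and 146 CPM, without overlap. Macrophage-like cells ranged from 104 to 195 CPM.

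Icam1 in neutrophil-like cells was the single adhesion molecule called under DDC against D0. Protocol A libraries held 21.1 at D0, 67.9 at D3, 71.4 at D5, 177 at D9, 380.2 at D19 and 338 at D25 CPM, and protocol B libraries 32.9 at D0, 226 at D5, 609.9 at D9, 345 at D19 and 286 at D25 CPM. The D0 libraries were the lowest of 11, all 9 DDC libraries lay above both of them, and the 5 highest values came at D9 and later. The means were 278 ± 169 CPM (SD, n = 9) and 27.0 ± 8.39 CPM (SD, n = 2), a log2 change of 2.79 (SE 0.48), adjusted p = 0.0322 (edgeR), where 0.168% of 5941 genes were called. The size was 2.81 in protocol A and 2.81 in protocol B alone, with adjusted p = 0.0754 and 0.0722 (edgeR). The call was lost without D0 A (adjusted p = 0.179), D5 A (0.0534), D5 B (0.0622) or D9 B (0.0546, all edgeR), and with at least 3000 UMIs per cell the change was 1.79 (adjusted p = 0.335, edgeR). Without the protocol term it was 2.83 (adjusted p = 0.173, edgeR). Neutrophil markers such as S100a8 and Retnlg summed to 130659 and 124677 CPM at D0 and to 46804 to 118806 CPM under DDC, all lower than at D0, and their part in the result was not tested. D9 B had the lowest sum and the highest Icam1.

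**Figure D3:**
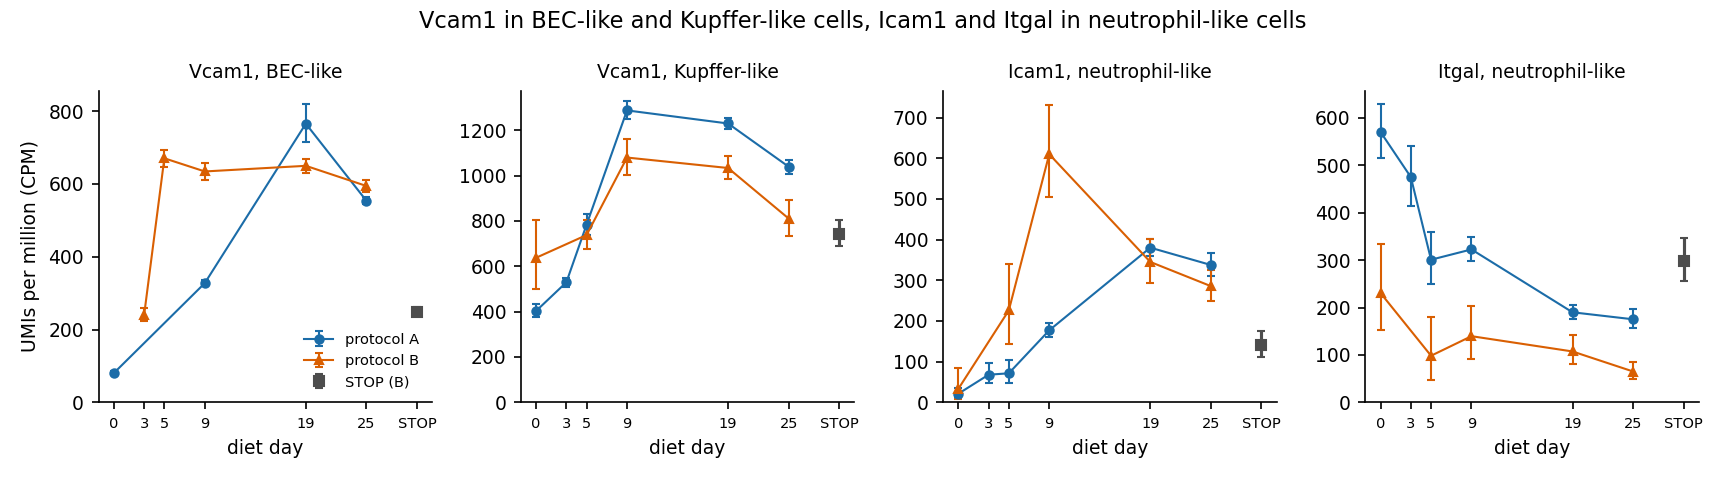
Level (CPM, vertical axes from 0) against diet day of Vcam1 in BEC-like and Kupffer-like cells and of Icam1 and Itgal in neutrophil-like cells, with 1 point per library, lines joining protocol A and protocol B libraries, exact 95% Poisson intervals as bars and the STOP library marked apart. Icam1 in neutrophil-like cells lay at 21.1 and 32.9 CPM at D0 and reached 609.9 CPM in D9 B, whereas Itgal went from 570.4 CPM in D0 A to 65.0 CPM in D25 B.

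Among the integrins, Itga4, the alpha chain of VLA-4, was broadly expressed in leukocytes. Median levels ran from mature DC-like cells (637 CPM) over NK/ILC1-like (385), pDC-like (358), monocyte-like (334), cDC2-like (275), cDC1-like (233), T-like (211), B-like (174), neutrophil-like (156) and macrophage-like (122) to Kupffer-like cells (70.7). The medians are over different libraries, and in the 8 that hold both types NK/ILC1-like cells were above pDC-like cells in 1. No neighbours in this order passed the adjusted exact sign-flip test, the closest being macrophage-like over Kupffer-like cells (adjusted p = 0.0524, higher in 10 of 11 libraries), and the pair with the fewest libraries in common (pDC-like and monocyte-like cells, 4) could not reach a p under 0.125. In T-like cells the D0 libraries held 166 and 62.3 CPM and DDC libraries averaged 222 ± 55.5 CPM (SD, n = 7). The log2 change of 1.06 (SE 0.40), adjusted p = 0.129 (edgeR), was not called. Of the 820 cells of T-like cluster 28, led by Tceal3 and Il4, 92.7% came from D0 B. That cluster held 30.3 CPM of Itga4, and cluster 42 30.7 CPM. Clusters 8, 15 and 46 held 210, 290 and 249 CPM. The part of this make-up in the difference was not tested. Itgb1, the common beta chain that pairs with many alpha chains, was highest outside the leukocytes, at 1048 CPM in the other endothelial-like and 863 CPM in LSEC-like cells. Among leukocytes it ran from 554 CPM in mature DC-like cells to 103 CPM in neutrophil-like cells. Itgb7, the other partner of Itga4, was held by cDC2-like (209.9 CPM), cDC1-like (186), T-like (184) and NK/ILC1-like cells (179), with less in pDC-like (122) and monocyte-like cells (121), 54.7 CPM in B-like and 21.9 CPM in mature DC-like cells. Itgb7 made up 43.4% of the summed Itgb1 and Itgb7 UMIs in cDC2-like, 43.1% in cDC1-like and 39.7% in T-like cells (medians over libraries), but 16.8% in neutrophil-like, 4.08% in mature DC-like and 0.544% in LSEC-like cells. Mature DC-like cells had the most Itga4 and little Itgb7. Such shares compare UMIs and not molecules of protein.

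Itgb7 in pDC-like cells stood at 193 CPM in D0 B, the single steady-state library, and at 171 in D3 B, 119 in D5 A, 124 in D5 B, 72.4 in D9 A, 114 in D9 B, 117 in D19 B and 130.1 CPM in D25 B. All 7 DDC libraries lay below D0 B, at 121 ± 28.8 CPM (SD, n = 7). The log2 change was -0.80 (SE 0.24), adjusted p = 0.0322 (edgeR), in a fit that called 18% of genes. It was lost without TMM scaling (-0.53, adjusted p = 0.147) and without D5 B (0.0805), D9 B (0.0519) or D19 B (0.0752, all edgeR).

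Itgal, the alpha chain of LFA-1, was at a median of 329.6 CPM in Kupffer-like, 264 in NK/ILC1-like, 235 in monocyte-like, 189.9 in neutrophil-like, 143 in T-like and 124 CPM in macrophage-like cells. Kupffer-like and NK/ILC1-like cells could not be told apart (adjusted exact sign-flip p = 0.427). cDC2-like (36.6) and B-like cells (35.2) had the least among the main leukocytes. In neutrophil-like cells it fell over the diet, from 570.4 at D0, 475 at D3, 301 at D5, 323 at D9, 189.9 at D19 and 175 at D25 CPM in protocol A and from 231 at D0, 98.3 at D5, 139.5 at D9, 107 at D19 and 65.0 at D25 CPM in protocol B. In each protocol the D0 library was highest and D25 was the lowest. The slope was -0.76 (SE 0.13), adjusted p = 0.00733 per 10 days (edgeR), with 4.85% of genes called in that fit. It was -0.80 in protocol A (adjusted p = 0.0322) and -0.71 in protocol B (adjusted p = 0.184, both edgeR). Icam1 in the same cells had a slope of 0.88 (SE 0.27), adjusted p = 0.0763 (edgeR). D0 A held the highest Itgal in Kupffer-like (829.5 CPM), NK/ILC1-like (817), monocyte-like (854), T-like (542) and macrophage-like cells (382) too. In Kupffer-like cells all 9 DDC libraries lay below both D0 libraries, at 318 ± 80.9 CPM (SD, n = 9) against 657 ± 244 CPM (SD, n = 2), a log2 change of -0.80 (SE 0.26), adjusted p = 0.111 (edgeR), which was not called. The neutrophil marker sums given for Icam1, lower under DDC than at D0, belong to the same neutrophil-like cells, and their part in the fall of Itgal was not tested. The free RNA of D0 A held 174 CPM of Itgal, against 25.5 to 123 in the other atlas libraries. The slope in neutrophil-like cells was called in all 11 fits that left out 1 library, D0 A included, at -0.81 to -0.71. Itgam, the alpha chain of Mac-1, gave 3151 UMIs in all cells, the fewest of the members. It stood at 30.9 CPM in monocyte-like, 29.7 in neutrophil-like, 11.7 in macrophage-like and 11.7 in cDC2-like cells, and at or below 3.804 CPM in the other types. Neutrophil-like cells exceeded macrophage-like cells by 1.35 on the log2 scale (SD 0.86, n = 11 libraries, higher in 11; exact sign-flip p = 0.000977, Benjamini-Hochberg adjusted 0.0291). The shared beta chain Itgb2, which is no member, was at 355 CPM in monocyte-like and 332 CPM in neutrophil-like cells.

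**Figure D4:**
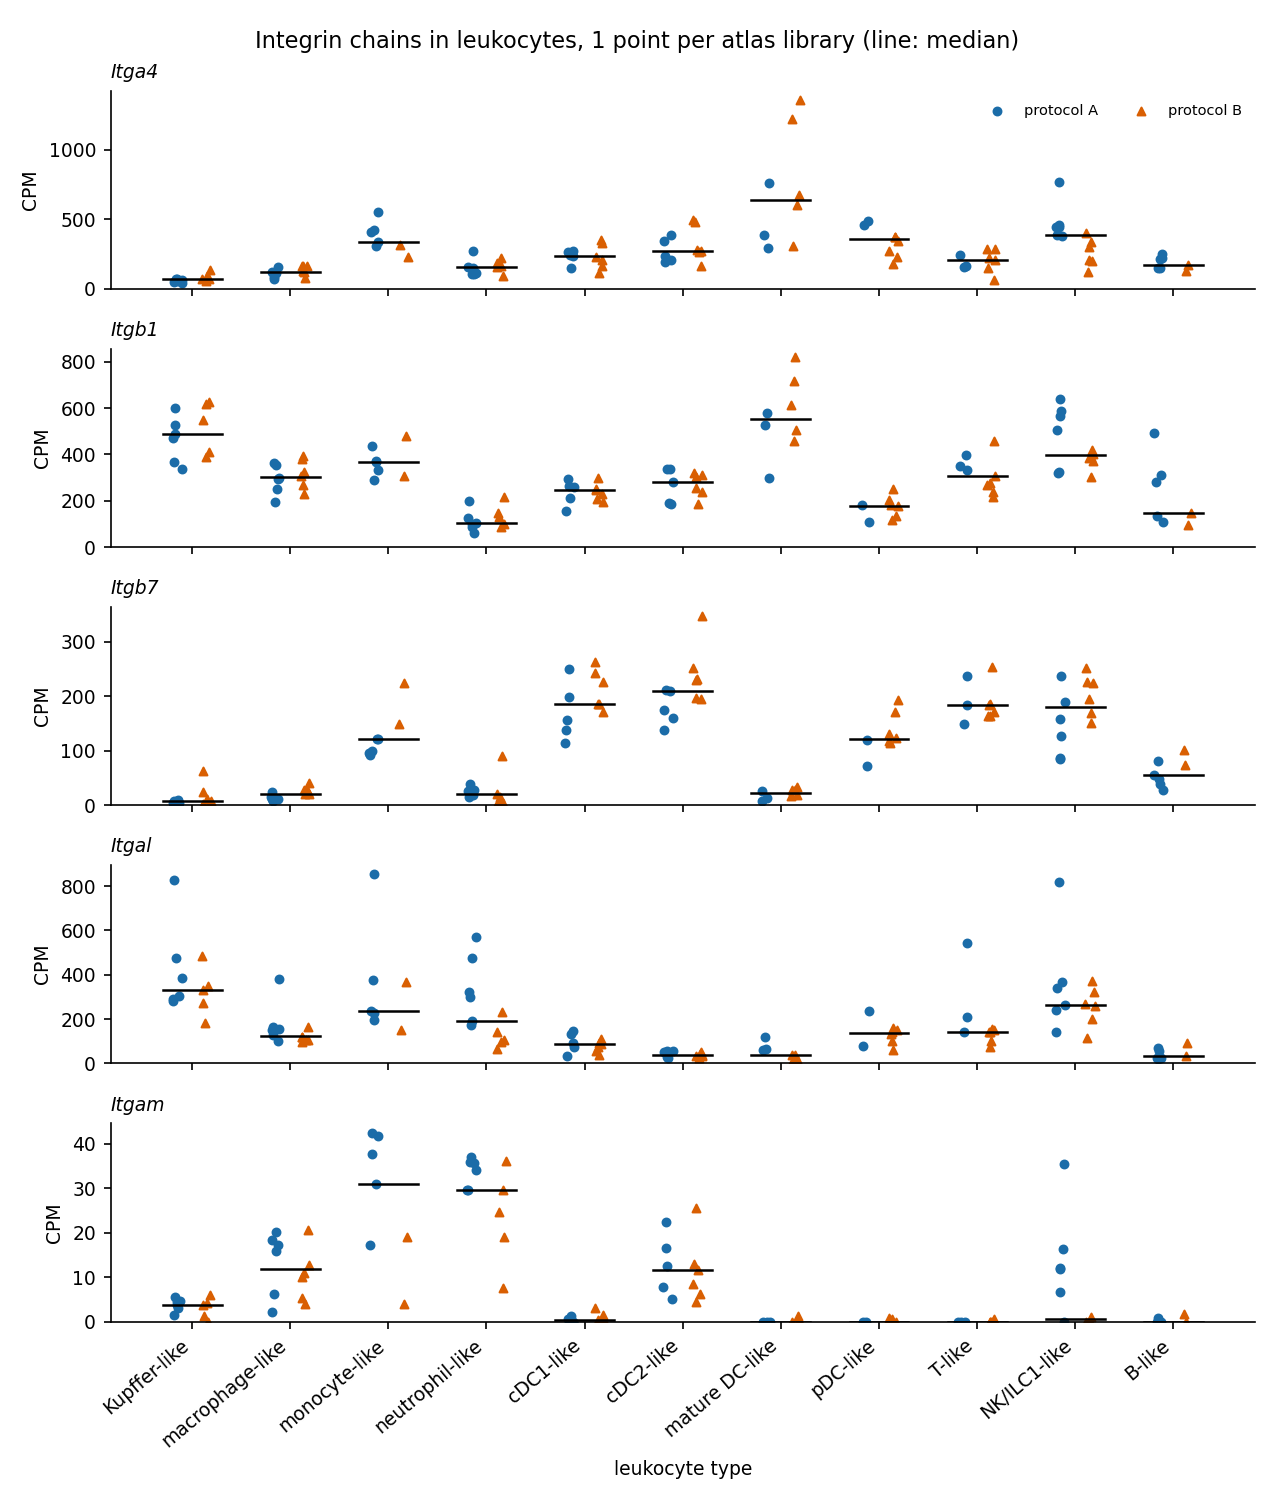
Level (CPM, 1 point per atlas library, short line at the median) of the 5 integrin genes in leukocyte types. Itga4 had its highest median in mature DC-like cells (637 CPM), Itgb7 in cDC2-like cells (209.9 CPM), Itgal in Kupffer-like cells (329.6 CPM) and Itgam in monocyte-like cells (30.9 CPM).

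Types of the same library were compared with the library as a block, which removes differences between libraries. Of 50 member-by-pair combinations, 39 passed the filter and 28 were called (20 higher, 8 lower in the first type), or 71.8% beside 45.7% of all gene-by-pair combinations (22.1% higher and 23.6% lower). Such type contrasts call a large part of all genes. Between the other endothelial-like and LSEC-like cells, 36.7% of genes were called. Selp was higher in the former by 1.68 (SE 0.29), adjusted p = 9.24e-05 (297 against 126 CPM), and Sele by 1.33 (SE 0.19), adjusted p = 1.18e-05 (268 against 108 CPM; both edgeR, n = 11 libraries). These are averages over diet days. The Selp difference narrowed over the diet, as given above, and in D25 B LSEC-like cells held the higher value. Icam2 (223 against 168 CPM), Itgb1 (1053 against 824 CPM) and Itgb7 (15.3 against 5.33 CPM) were higher as well, while Vcam1 differed by 0.29 (SE 0.16), adjusted p = 0.158 and Icam1 by 0.23 (SE 0.12), adjusted p = 0.128 (edgeR). With mixed cells left out, Vcam1 was called (adjusted p = 0.000924, edgeR). Between Kupffer-like and macrophage-like cells, with 47.8% of genes called, the former had more Itgal, by 1.27 (SE 0.10), adjusted p = 4.2e-09 (379 against 148 CPM), and more Itgb1, by 0.59 (SE 0.08), adjusted p = 4.35e-06. They had less Itgam, at a log2 difference of -1.90 (SE 0.18), adjusted p = 6.49e-08 (3.43 against 12.0 CPM), less Itga4, at -0.88 (SE 0.10), adjusted p = 7.16e-07, and less Itgb7, at -1.14 (SE 0.27), adjusted p = 0.00157 (all edgeR, n = 11). Itgam did not pass the low-count filter in Kupffer-like cells alone and was tested through the macrophage-like cells, so no support is drawn from its p. Icam1 was higher by 0.57 (SE 0.19), adjusted p = 0.017 (edgeR), but was lost without D3 A, D9 A, D19 A or D25 A (adjusted p from 0.0561 to 0.137) and was -0.25 in protocol B alone.

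Neutrophil-like against monocyte-like cells, with 58.5% of genes called, had more Icam1, by 2.85 (SE 0.28), adjusted p = 1.33e-06 (187 against 30.2 CPM), and more Vcam1, by 1.08 (SE 0.24), adjusted p = 0.00205 (30.9 against 16.6 CPM). They had less of both partners of VLA-4, Itga4 at -1.14 (SE 0.15), adjusted p = 2.07e-05 (141 against 367 CPM) and Itgb1 at -1.30 (SE 0.15), adjusted p = 8.18e-06 (123 against 369.7 CPM), and less Itgb7 and Icam2 (all edgeR, n = 7). Icam2 did not pass the low-count filter in neutrophil-like cells alone and was tested through the monocyte-like cells. The LFA-1 and Mac-1 chains were not called, Itgal at -0.05 (SE 0.18), adjusted p = 0.829 and Itgam at 0.29 (SE 0.26), adjusted p = 0.368 (edgeR). In D9 A, D19 A and D25 A the free RNA held more Vcam1 than either type. Median depth was 1810.5 to 3497 UMIs per neutrophil-like cell and 3200.5 to 8918 per monocyte-like cell. The part of free RNA in the Vcam1 difference was not tested. cDC2-like against cDC1-like cells, with 57.4% of genes called, differed most in Itgam, by 3.58 (SE 0.23), adjusted p = 9.07e-11 (12.6 against 0.796 CPM, without overlap). Itgam did not pass the low-count filter in cDC1-like cells alone, so it was tested only because cDC2-like cells hold it. No support is drawn from its p. Icam1 was higher by 1.495 (SE 0.13), adjusted p = 1.22e-08 (59.3 against 20.6 CPM) and Itga4 by 0.42 (SE 0.06), adjusted p = 1.46e-05, and Itgal was lower, at -1.14 (SE 0.12), adjusted p = 1.3e-07 (38.0 against 78.7 CPM; all edgeR, n = 10). Itgb1 and Itgb7 were each higher by 0.21 on the log2 scale. NK/ILC1-like against T-like cells, with 30% of genes called, had more Icam1, by 1.44 (SE 0.13), adjusted p = 1.14e-08 (143 against 49.3 CPM), more Itgal, by 0.80 (SE 0.10), adjusted p = 1.41e-06 (328 against 184 CPM), and more Itga4, by 0.57 (SE 0.17), adjusted p = 0.0132 (352 against 198 CPM; all edgeR, n = 9). Itgb1 was called at 0.36 (SE 0.11), adjusted p = 0.014 and lost without D0 A or D0 B (0.0539 and 0.0526, edgeR). Itgb7 differed by -0.06 (SE 0.11), adjusted p = 0.721 (edgeR).

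**Figure D5:**
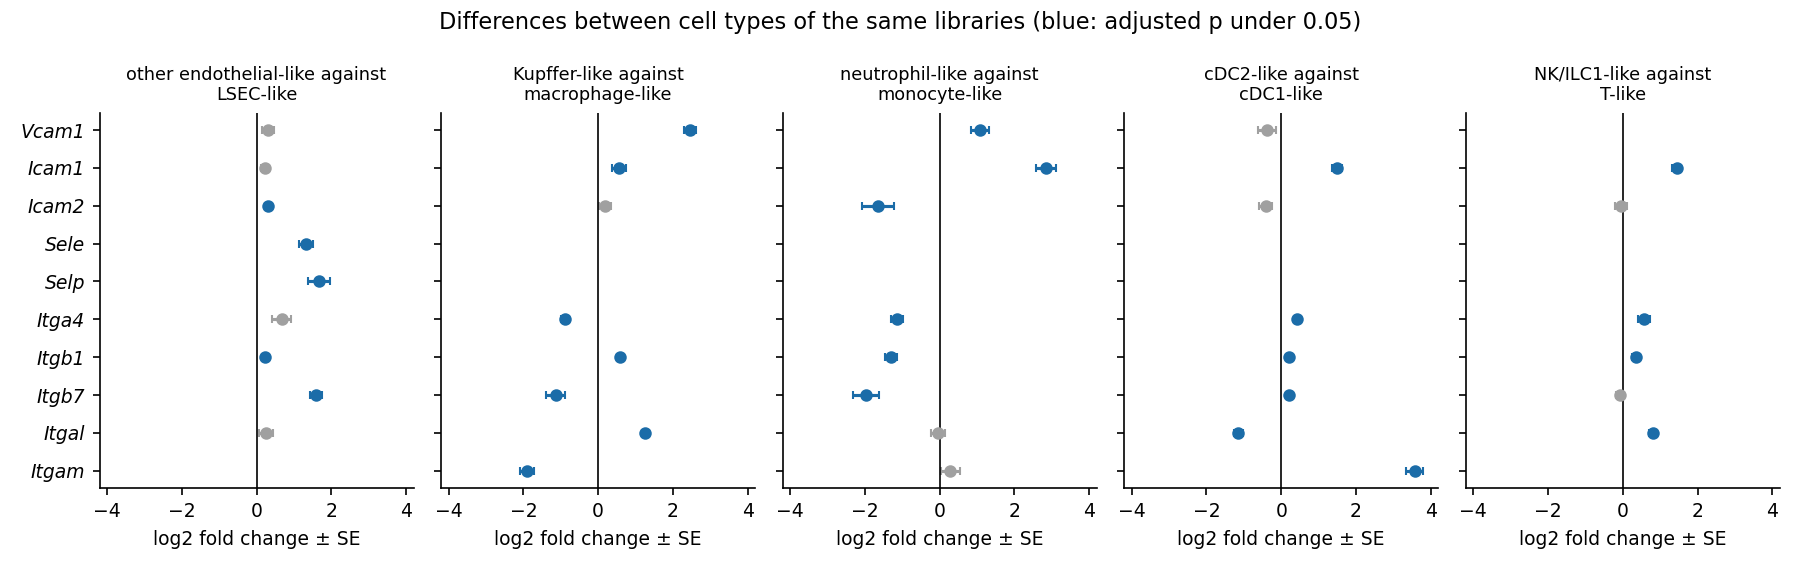
Log2 difference (horizontal axis, bars for SE) of the 10 genes between types of the same libraries in 5 pairs, with blue for an edgeR adjusted p under 0.05. Vcam1 stood 2.47 higher in Kupffer-like than macrophage-like cells and Itgam 3.58 higher in cDC2-like than cDC1-like cells. Itgam passed the low-count filter in that pair only through the cDC2-like cells.

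The recovery library has no replicate, so its levels are set beside those of D19 B, of the same protocol, with exact 95% Poisson intervals that cover counting error only. The intervals were apart in 44 of 130 member-by-type pairs. All 44 were among the 99 pairs with at least 10 UMIs in both libraries together, or 44.4%, beside 21.5% of all gene-by-type pairs with as many. With at least 30 UMIs these shares were 53.7% and 26.3%, so they move with the number of UMIs, and nothing particular to the members is read from them. Selp in LSEC-like cells went from 254 (95% interval 233 to 276) to 87.1 CPM (77.8 to 97.3), below every library from D9 on in protocol B. Vcam1 in BEC-like cells went from 649.8 (95% interval 631 to 669) to 249 CPM (236 to 262), and in macrophage-like cells it was 169 and 56.5 CPM at D19 B and STOP. In Kupffer-like cells the Vcam1 values were 1033 and 744 CPM. In neutrophil-like cells, Icam1 went from 345 (95% interval 294 to 402) to 141 CPM (112 to 175) and Itgal from 107 (95% interval 79.9 to 141) to 299 CPM (256 to 347). STOP lay between the D0 and D19 levels of protocol B for Icam1 and above both for Itgal. Icam2 was higher in STOP, from 102 (95% interval 89.1 to 117) to 289.7 CPM (272 to 308) in LSEC-like cells. It was 7.82 and 48.2 CPM in BEC-like cells, where LSEC markers summed to 692 and 2623 CPM, and the part of LSEC RNA there was not tested. Itgb7 was higher in T-like (163 and 299 CPM), NK/ILC1-like (169 and 294 CPM) and pDC-like cells (117 and 244 CPM). Itga4 in mature DC-like cells was 1219 and 671 CPM, from 40 and 63 cells. Itgb1 was lower in STOP in 9 types with separate intervals. Sele in LSEC-like cells was at 138 and 149 CPM, with intervals that overlapped.

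Other genes of leukocyte adhesion were counted in 4 lists of 46 genes in all, for junctions and transmigration, selectins and their ligands, other integrins, and integrin activation. Under DDC against D0, edgeR called 0 of 153 gene-by-type pairs of these lists in LSEC-like, other endothelial-like, BEC-like and Kupffer-like cells, while 29 passed 0.05 before adjustment and 10 were called by DESeq2. Over all 14 types, 0 of 96 gene-by-type pairs of the junction list (15 with an unadjusted p under 0.05, 4 by DESeq2), 9 of 139 of the selectin list (5 higher, 4 lower), 2 of 117 of the other integrins (both higher) and 2 of 129 of the activation list (both lower) were called, beside 3.25% of all pairs. Of these 13 calls, 5 were in pDC-like, 5 in cDC2-like, 2 in macrophage-like and 1 in T-like cells, where 18%, 9.53%, 4.48% and 3.69% of genes were called. Progression against onset called 1 pair of 454 (beside 0.041% of all pairs), Cd24a, a selectin ligand, in the other endothelial-like cells (2.12 (SE 0.37), adjusted p = 0.039, edgeR; 20.4 against 5.61 CPM). Within libraries, the other endothelial-like cells had more Jam2, a junction molecule, than LSEC-like cells (1.43 (SE 0.10), adjusted p = 3.21e-10; 1284 against 439 CPM), and Kupffer-like cells had more Cdh5, the cadherin of endothelial junctions, than macrophage-like cells (4.601 (SE 0.23), adjusted p = 9.06e-12; 387 against 15.1 CPM) and less Itgax (-2.10 (SE 0.18), adjusted p = 1.17e-08; 52.5 against 191 CPM; all edgeR). Kupffer-like cells held endothelial lineage markers at 273 to 992 CPM in sum, and LSEC-like cells at 5785 to 9835 CPM, and the part of shared RNA in the Cdh5 difference was not tested.

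The genes most like each member were found by Pearson's r of log2 levels over 162 sums of 1 type in 1 library, among 7042 genes. These sums share libraries, depth and cell types, so r is a description. Vcam1 was most like Trim47 (r = 0.857) and Mertk (r = 0.856), the latter a receptor tyrosine kinase of macrophages that clear dead cells. Sele was most like Fat4 (r = 0.897) and Robo1 (r = 0.875) and next like Selp, and Selp most like Sele (r = 0.871). Icam1 was most like Nfkbiz, an NF-kB cofactor (r = 0.713), and Icam2 most like Snrk (r = 0.791) and S1pr1 (r = 0.791). Itga4 was most like Cytip (r = 0.933) and Arhgap30 (r = 0.928), Itgb1 most like Cyth3 (r = 0.764) and Nfe2l1 (r = 0.759), and Itgb7 most like Map4k1 (r = 0.812) and Runx3 (r = 0.808). Itgal was most like Pik3cd (r = 0.873) and Itgb2 (r = 0.871), its own partner in LFA-1 being the second, and Itgam most like Sirpb1c (r = 0.821) and Sirpb1b (r = 0.803).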

How the data were processed

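The deposited values are raw UMI counts by gene symbol and barcode, neither normalized nor limited to cells, of 13 libraries of the 10x Genomics 3' v3.1 kit (single index for protocol A, dual index for protocol B). The authors made them with kallisto, and the submitters' processing notes name GRCm38. Versions and annotation are not given in the sources used here. Total counts were 29307190 to 108602421 UMIs per library.

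Barcodes with at least 1500 UMIs were kept. After scaling each cell to 10000 UMIs and taking logs, 2000 variable genes without the members and the adhesion lists gave 40 principal components, a graph of 25 neighbours and 59 Leiden clusters (igraph 0.11.9, resolution 1.5). A cluster was named where at least 3 markers were found in 10% of its cells at 2-fold the level of other cells. It stayed unnamed where markers of another lineage, leading genes of another type or higher markers of a related type were seen. Leading genes kept cluster 9 (3405 cells) and cluster 35 (721 cells) unnamed, each with 7 of 8 T markers. The same held for cluster 18 (1754 cells, 83.3% from D19 A), with 7 of 8 LSEC markers. With such clusters counted in, all 69 named results kept their side of the threshold. The naming rule was revised after clusters had been seen. No doublet caller was run, and cells with at least 3 UMIs of markers of another lineage were left out as an alternative.

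Counts were summed per library and type (at least 20 cells) and tested with edgeR 4.0.16 in R 4.3.3 (quasi-likelihood, TMM, filterByExpr, Benjamini-Hochberg over all genes of a fit at 0.05), with isolation protocol as a term or the library as a block. DESeq2 1.42.0 was an alternative. A standard error is the log2 change over the root of the F statistic. Levels of types next to each other in order were compared by exact sign flips over libraries. Poisson intervals are exact at 95% and cover counting error only. The fit with the diet day as a number and its difference between endothelial types were chosen after seeing the data.

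The members and lists were chosen with earlier results of these data known. Named are all members, with values for every called pair and for the vessel-wall genes in endothelial, BEC-like and Kupffer-like cells, listed adhesion genes called in those fits (at most 3 per list and direction, of which the largest are printed), and the genes most like each member.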

Additional observations from a re-analysis of the deposited data

Results flagged for a closer look

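Groups of 4 to 10 libraries were searched for a library far from the others, and 2 of the 18 groups tested held one, where chance gives about 1 in 20. Vcam1 in LSEC-like cells was 822 CPM in D25 B and 249 to 402 CPM in the other 5 progression libraries. Icam1 in BEC-like cells was 156 CPM in D19 B and 45.1 to 83.5 CPM in the other 5.

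The change per 10 diet days differed between LSEC-like and the other endothelial-like cells for Selp, by 1.24 on the log2 scale (SE 0.14, edgeR adjusted p = 7.44e-05), and for Sele, by 0.66 (SE 0.15, edgeR adjusted p = 0.0446). The Sele difference was called in 3 of the 11 fits without 1 library, and it was 0.48 (adjusted p = 0.351, edgeR) with mixed cells left out. For Vcam1 the difference was 0.53 (adjusted p = 0.0775, edgeR) and for Icam1 -0.05 (adjusted p = 0.995, edgeR).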

How the results depend on the processing

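The replicate numbers of the libraries stand for isolation protocols A and B, so the protocol term of the stage fits is the replicate block. Without it 0 pairs were called for progression against onset and 2 for DDC against D0, where Vcam1 in BEC-like cells gained its call, Icam1 in neutrophil-like cells lost it, and no other named pair crossed the threshold. For DDC against D0, the 2 called member-by-type pairs became 7 with DESeq2, 4 without TMM, 15 without the filter on low counts, 4 with at least 50 cells, 4 with mixed cells left out, 0 with protocol A only and 4 with protocol B only, and 0 to 5 when 1 library was left out. Progression against onset went from 0 to 3 with DESeq2 and 10 without the filter, and stayed within 0 to 2 without 1 library. Types within libraries went from 28 to 17 without the library block and 17 with protocol B only, and to 26 to 31 without 1 library. The diet day as a number went from 3 to 6 with DESeq2 and 1 with protocol B only, and to 3 to 4 without 1 library. Separate intervals between STOP and D19 B went from 44 to 34 with mixed cells left out. Icam1 in Kupffer-like against macrophage-like cells turned to -0.25 with protocol B only. The cause was not tested. Of 1421 alternative values of 69 named results, 1334 kept their side of the threshold, 65 lost their call and 21 gained one. Only 1 changed sign where a call was involved. Changes of sign between uncalled values are counted among the 1334. Steady state rests on 2 libraries at most, and D3 B, with 1541 cells, and D0 B hold few cells of several types. Low counts left 28 of 140 member-by-type pairs untested for DDC against D0.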

Other observations

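Outside the types above, Vcam1 stood at a median of 296 CPM in stellate/fibroblast-like cells, in a range of 189 to 867 CPM over 7 libraries, and Icam1 at 91.4 CPM. Lymphatic endothelial-like cells held 116 CPM of Icam1, 94.1 of Icam2 and 57.4 of Selp (medians over 5 libraries), the next highest Selp after both blood endothelial types. With each cell thinned to 1500 UMIs, a median of 41.1% of LSEC-like cells with a Sele UMI had a Vcam1 UMI, against 21.6% of those without. LSEC-like clusters differed in both genes, and the part of this in the pairing was not tested. At the same depth, Icam2 and Sele showed no such pairing in LSEC-like cells. Of those with an Icam2 UMI 6.69% had Sele, against 6.79% of those without, and the share was higher with Icam2 in 6 of 12 libraries. In the other endothelial-like cells the shares were 18.3% with Icam2 and 14.7% without, higher with it in 7 of 9 libraries. Itgam made up 22.6% of the summed Itgal and Itgam UMIs in cDC2-like, 10.6% in neutrophil-like and 1.08% in Kupffer-like cells.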
